A study of Mus musculus with 8 samples.

Results

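The genes described here are 8 genes of hepatic gluconeogenesis, chosen by name: Pck1, G6pc, Fbp1, Pcx, Ppargc1a, Slc37a4, Gpt and Got1. All 8 were found by their GRCm38 symbols among the 46078 gene identifiers of the deposited read counts, and all 8 were among the 13856 genes with enough reads to be tested. The study deleted the splicing factor Rbfox2 in hepatocytes and measured poly(A) RNA from whole liver by RNA-seq, with 1 library per liver. Wild-type livers (L-WT, n = 4) came from Albumin-cre negative Rbfox2 LoxP/LoxP mice, and knockout livers (L-ΔRbfox2, n = 4) from Albumin-cre positive Rbfox2 LoxP/LoxP mice, so that both groups carried the floxed alleles. Both groups were fed the control diet (CD), labelled chow, for 12 weeks according to the labels, and were fasted for 16 h before the livers were taken. The study's methods give another length of feeding for its diets, and which one held for these livers is not settled here. The labels used here give no age. Albumin-cre acts in hepatocytes; these libraries of whole liver do not give Rbfox2 by cell type. In bulk liver, fewer cells of a type and less RNA per cell cannot be told apart.

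Gluconeogenesis makes glucose from lactate, amino acids and glycerol, and in a long fast the liver is its main site. Most of its steps run glycolysis backwards with shared enzymes, but the steps from pyruvate to phosphoenolpyruvate, from fructose bisphosphate to fructose 6-phosphate and from glucose 6-phosphate to glucose need enzymes of their own. Glucagon, through cAMP and CREB, and glucocorticoids raise transcription of several of these genes in fasting, with Ppargc1a as a coactivator, whereas insulin represses them through FOXO1.

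The promoters of Pck1, G6pc and Ppargc1a are shown because these are the genes through which cAMP and insulin are best known to act, and because their levels are compared with each other across livers further on. RefSeq promoter entries (GRCm38.p6) were found for 7 of the 8 genes, 10 entries in all, with none for Gpt. The 250 bases before each start were searched on both strands for the cAMP response element core TGACGT (reverse complement ACGTCA), the insulin response sequence TGTTTTG and the forkhead site TGTTTAC, which do not overlap one another in these windows. Of 32851 mouse promoters, 6.47% held the first, 5.56% the second and 3.17% the third. Printed below are the parts of these windows that lie outside annotated exons, 5′ to 3′ on the strand of the gene, with the matched letters in capitals.
Pck1, chr2:173152823-173153047, plus strand: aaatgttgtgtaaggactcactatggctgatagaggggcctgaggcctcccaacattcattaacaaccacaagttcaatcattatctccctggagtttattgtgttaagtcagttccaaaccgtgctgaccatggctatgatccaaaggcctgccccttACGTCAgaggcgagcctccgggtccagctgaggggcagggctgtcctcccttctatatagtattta
G6pc, chr11:101367466-101367560, plus strand: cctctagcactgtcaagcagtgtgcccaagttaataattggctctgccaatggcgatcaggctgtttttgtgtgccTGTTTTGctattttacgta
Ppargc1a, chr5:51567727-51567975, minus strand: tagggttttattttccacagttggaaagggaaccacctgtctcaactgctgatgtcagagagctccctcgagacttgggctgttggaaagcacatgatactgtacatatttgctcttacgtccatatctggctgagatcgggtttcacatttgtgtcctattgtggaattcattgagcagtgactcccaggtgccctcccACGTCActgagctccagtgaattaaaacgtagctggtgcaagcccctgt
The cAMP response element core lay from -91 to -86 in Pck1 and from -50 to -45 in Ppargc1a, counted from the RefSeq start, and also in 2 overlapping entries of Slc37a4. The insulin response sequence was matched in G6pc, from -174 to -168. The windows of Fbp1, Pcx and Got1 held none of these letters, and the forkhead site was in none of the 10 entries. Only these exact letters in 250 bases were searched, so a miss does not show that a gene lacks such an element.

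Libraries held between 37482458 and 56177588 counts. Values are given as CPM, counts per 1000000 after scaling by TMM factors, and differences as the log2 fold change of L-ΔRbfox2 over L-WT from edgeR's quasi-likelihood test. L-ΔRbfox2 livers 3 and 4 stood apart in their scaling, with TMM factors of 0.724 and 0.776 against 1.02 to 1.14 in the other 6 livers. Transcripts of the major urinary proteins took 43.6% and 37.5% of their counts, against 21.4% to 37.1% elsewhere. The first principal component, with 54.1% of the variance, did not divide the genotypes: L-WT livers 1 and 4 and L-ΔRbfox2 liver 2 lay on 1 side (-59.4, -54.6 and -35.9) and the other 5 livers on the other (3.97 to 56).

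Rbfox2 itself (ENSMUSG00000033565, chr15:77078990-77307004) was at 17.1, 10.4, 11.4 and 18.3 CPM in L-WT livers 1 to 4, and at 4.61, 6.09, 2.24 and 3.19 CPM in L-ΔRbfox2 livers 1 to 4. Every knockout liver lay below every wild-type liver, as the labels have it. The log2 fold change was -1.82, with an exact two-sided permutation P of 0.0286, the smallest that 4 livers against 4 allow. Over all 13856 genes its adjusted P was 0.504 by edgeR, and 2.3e-04 by DESeq2.

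No gene of the 13856 passed an adjusted P of 0.05 in edgeR (0%), where the lowest value was 0.504. With unadjusted P under 0.05, edgeR counted 1356 genes (9.79%), of which 1102 were higher in L-ΔRbfox2 (7.95%) and 254 lower (1.83%). The split was 829 to 338 with upper-quartile factors and 203 to 393 with library totals alone. With library totals alone the median log2 fold change of all genes was itself -0.23. Unless stated, values given below for that setting, and ranges over the alternatives, include this shift. The unadjusted count moved with single livers: it was 608, 2531, 852 and 505 without L-WT liver 1, 2, 3 or 4, and 3475, 550 and 404 without L-ΔRbfox2 liver 2, 3 or 4. DESeq2 called 10 genes at the adjusted threshold (1565 unadjusted) and limma-voom 0 (979 unadjusted). None of the 8 gluconeogenesis genes was called by any of these 3 tools, and 0 of 8 reached an unadjusted P under 0.05 in any of them. In 316 genes (2.28%) the CPM of the genotypes did not overlap, and in all 8 gluconeogenesis genes they did. The median log2 fold change of the 8 was -0.037, against -0.015 over all genes tested, with 4 above 0 and 4 below. This median did not keep its sign: it ran from -0.15 to 0.14 when single livers were left out, with 2 to 5 genes above 0, and was 0.019 by limma-voom, -0.19 with library totals alone (1 above 0) and 0.098 without L-ΔRbfox2 livers 3 and 4 (6 above 0).

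The path begins with carbon from amino acids and lactate. Gpt (ENSMUSG00000022546, chr15:76695716-76699686), alanine aminotransferase, turns alanine into pyruvate. It was at 144, 179, 173 and 220 CPM in L-WT and at 143, 170, 197 and 133 CPM in L-ΔRbfox2 livers 1 to 4. L-WT liver 4 was the highest and L-ΔRbfox2 liver 4 the lowest, and the remaining 6 livers were interleaved. On the log2 scale the difference was -0.16 (edgeR adjusted P 0.721), and it ran from -0.39 to -0.040 over the alternatives, nearest to 0 without L-WT liver 4.

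Got1 (ENSMUSG00000025190, chr19:43499752-43524605), the cytosolic aspartate aminotransferase, helps to carry oxaloacetate carbon out of mitochondria. Its values were 327, 239, 217 and 411 CPM in L-WT and 344, 409, 377 and 130 CPM in L-ΔRbfox2. The range over the 8 livers was 3.16-fold. L-ΔRbfox2 liver 4 was the lowest of all, whereas the other 3 knockout livers lay between the second-highest and highest wild-type livers. The log2 fold change of 0.08 (edgeR adjusted P 0.927) was 0.34 without that liver and fell below 0 in several other settings, among them library totals without scaling factors (-0.092). Its 95% interval from limma-voom, -0.83 to 0.81, was the widest of the 8 after that of Ppargc1a.

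Pcx (ENSMUSG00000024892, chr19:4510472-4621752) encodes pyruvate carboxylase, which makes oxaloacetate from pyruvate in mitochondria. It was at 352, 287, 331 and 457 CPM in L-WT and at 291, 445, 260 and 253 CPM in L-ΔRbfox2. L-ΔRbfox2 livers 3 and 4 were below every wild-type liver, and L-ΔRbfox2 liver 2 was close to the highest wild-type liver. Its log2 fold change was -0.19 (edgeR adjusted P 0.713), and it was -0.0017 after correction for GC content and gene length, -0.051 without L-WT liver 4 and 0.028 when L-ΔRbfox2 livers 3 and 4 were both left out. The lowest value, -0.41, was without L-ΔRbfox2 liver 2.

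Pck1 (ENSMUSG00000027513, chr2:173153048-173159273), the cytosolic phosphoenolpyruvate carboxykinase, makes phosphoenolpyruvate from oxaloacetate and is the classical fasting-induced enzyme of the path. It was at 2611, 2112, 2466 and 3716 CPM in L-WT, a mean of 2726 ± 693 (SD, n = 4). In L-ΔRbfox2 it was at 2515, 2301, 2195 and 1818 CPM, a mean of 2207 ± 292 (SD, n = 4). L-WT liver 4 stood above the other 7 livers, and L-ΔRbfox2 liver 4 was the one knockout liver below every wild-type liver. For the difference, the log2 fold change was -0.30 (SE 0.21 by limma-voom, edgeR adjusted P 0.585). It lay below 0 in every setting run, from -0.50 to -0.12, and was nearest to 0 without L-WT liver 4. The 95% interval, -0.76 to 0.19, spans a level in the knockout from 0.589 to 1.14 times that of wild type.

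Fbp1 (ENSMUSG00000069805, chr13:62864753-62888282), fructose-1,6-bisphosphatase, catalyses the next of the one-way steps. It was at 614, 822, 762 and 750 CPM in L-WT (737 ± 87.9, SD, n = 4) and at 1088, 820, 1065 and 794 CPM in L-ΔRbfox2 (942 ± 156, SD, n = 4). L-ΔRbfox2 livers 1 and 3 were above every wild-type liver, and livers 2 and 4 fell within the wild-type range. With a log2 fold change of 0.35 (SE 0.18 by limma-voom) Fbp1 had the smallest P of the 8 genes in edgeR, 0.0844 unadjusted and 0.527 adjusted. The 95% interval was -0.059 to 0.76, or 0.96 to 1.69 times the wild-type level. The value stayed above 0 in every setting run, from 0.095 to 0.43, but was 0.11 after correction for GC content and gene length and 0.13 with library totals alone. The median of all genes was -0.23 with library totals alone, and relative to it Fbp1 was at 0.36.

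The last step takes place in the endoplasmic reticulum. Slc37a4 (ENSMUSG00000032114, chr9:44396852-44402968) encodes the transporter that brings glucose 6-phosphate in. It was at 110, 89.8, 98.7 and 110 CPM in L-WT and at 88.2, 125, 161 and 92.1 CPM in L-ΔRbfox2. L-ΔRbfox2 livers 2 and 3 lay above the wild-type range and livers 1 and 4 near its lower end. The log2 fold change was 0.19 (edgeR adjusted P 0.699), with values of -0.032 without L-ΔRbfox2 liver 3, -0.056 with library totals alone and at most 0.31 over the alternatives.

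G6pc (ENSMUSG00000078650, chr11:101367561-101377903), the catalytic subunit of glucose-6-phosphatase, releases free glucose. It was at 202, 182, 164 and 203 CPM in L-WT (188 ± 18.4, SD, n = 4) and at 205, 299, 165 and 153 CPM in L-ΔRbfox2 (205.5 ± 66, SD, n = 4). L-ΔRbfox2 liver 2 was the highest of the 8, at 1.95 times the lowest, and the spread of the knockout livers (32.1% of their mean) was wider than that of wild type (9.81%), a difference that was not tested. With all 8 livers the log2 fold change was 0.13 (SE 0.22 by limma-voom, edgeR adjusted P 0.8). It was 0.41 without L-ΔRbfox2 livers 3 and 4 (edgeR adjusted P 1), -0.11 without L-ΔRbfox2 liver 2, -0.029 after correction for GC content and gene length and -0.022 with library totals alone.

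Ppargc1a (ENSMUSG00000029167, chr5:51454250-51567726) is the coactivator of the list rather than an enzyme. It was at 18.6, 4.02, 7.05 and 13.1 CPM in L-WT and at 13.5, 10.2, 8.81 and 5.76 CPM in L-ΔRbfox2. Its 4.62-fold range was the widest of the 8 genes, with both the highest and the lowest liver wild type. The log2 fold change was -0.15 (edgeR adjusted P 0.885), and it was 0.23 without L-WT liver 1, 0.048 by limma-voom and at the lowest -0.42. The 95% interval ran from -0.95 to 1.05, so that neither a level reduced to 0.516 times wild type nor one raised to 2.07 times was outside it.

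**Figure D1:**
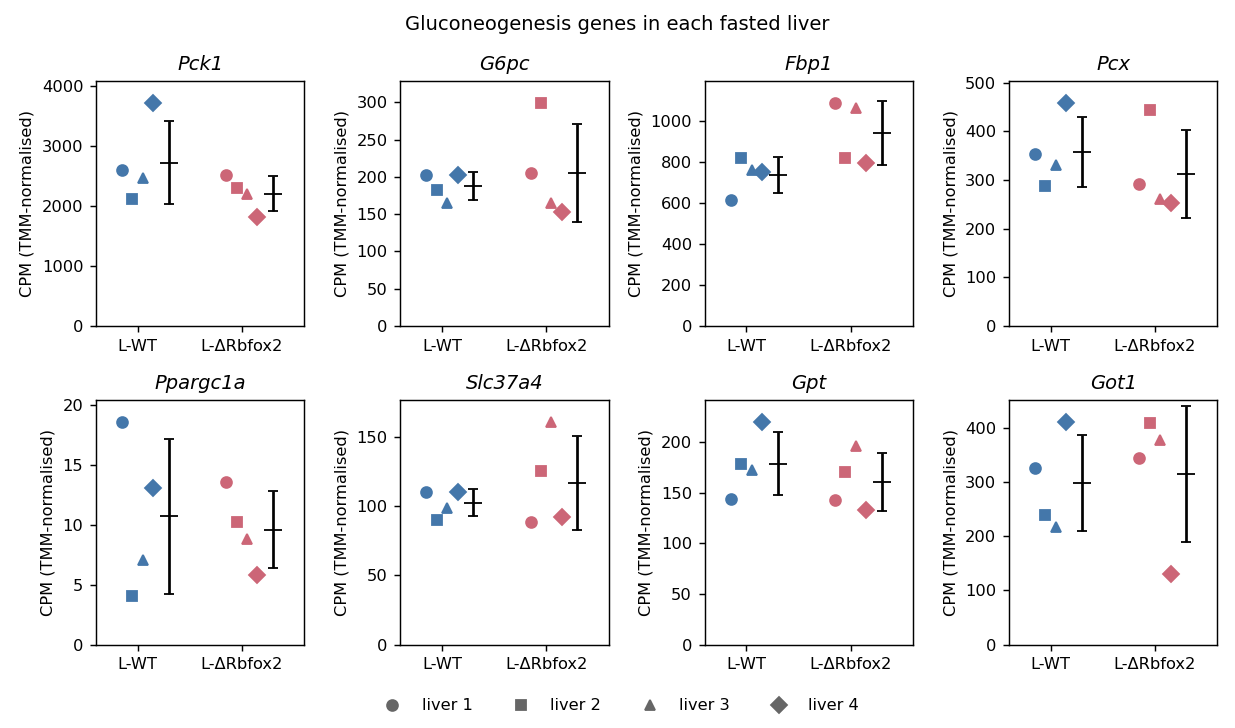
TMM-normalised CPM (y axis, from 0) of the 8 gluconeogenesis genes in each of 4 L-WT (blue) and 4 L-ΔRbfox2 (red) livers, with a marker shape for each liver number and the mean ± SD beside each group. In all 8 panels the genotypes overlap. L-WT liver 4 was highest for Pck1, Pcx, Gpt and Got1, and L-ΔRbfox2 liver 4 lowest for 5 genes.

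Across the 8 panels of CPM by liver, the extremes fell in few livers. L-WT liver 4 was the highest liver for 4 of the 8 genes (Pck1, Pcx, Gpt and Got1), and L-ΔRbfox2 liver 4 was the lowest for 5 (Pck1, G6pc, Pcx, Gpt and Got1). The same-numbered livers came from different mice. The highest values of the remaining 4 genes were each in a different liver: Ppargc1a in L-WT liver 1, Fbp1 in L-ΔRbfox2 liver 1, G6pc in L-ΔRbfox2 liver 2 and Slc37a4 in L-ΔRbfox2 liver 3. None of the exons of the 8 genes shares bases with another annotated gene.

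**Figure D2:**
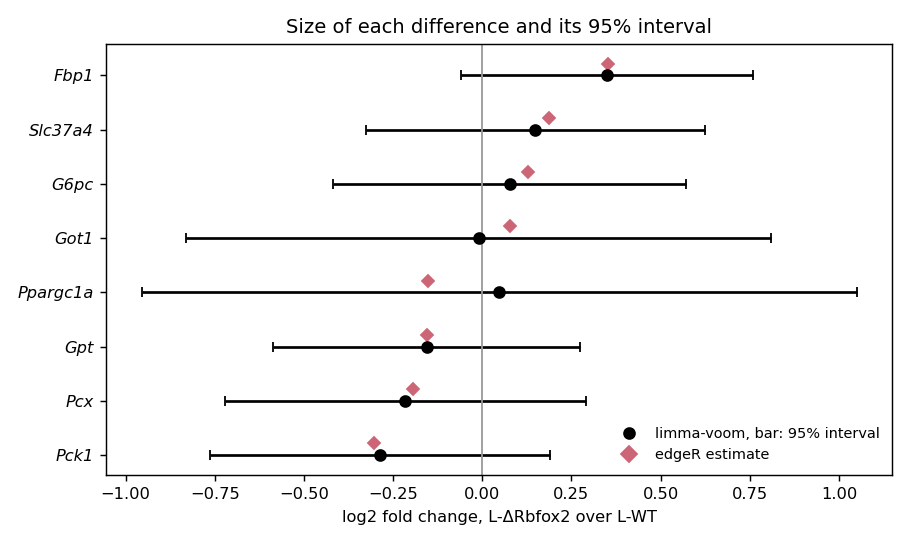
Log2 fold change of L-ΔRbfox2 over L-WT (x axis) for each gluconeogenesis gene, as the limma-voom estimate with its 95% interval (black) and the edgeR estimate (red). All 8 intervals include 0, from Pck1 (-0.76 to 0.19) to Fbp1 (-0.059 to 0.76).

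The widths of the intervals in the plot of fold changes differed between genes. For Pck1, G6pc and Fbp1 the limma-voom standard errors were 0.214, 0.222 and 0.183, and for Ppargc1a and Got1 0.449 and 0.368. An interval that includes 0 does not show that the genotypes had the same levels.

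Levels of different genes were compared per length, as TPM, counts per kilobase of exon scaled to a sum of 1000000 in each liver. Pck1 was the most abundant (mean TPM over 8 livers 1196 ± 439, SD), followed by Fbp1 (798 ± 216), and the order of these 2 levels held in all 8 livers. Got1 (200.3 ± 83.2), G6pc (136 ± 52.2), Pcx (118 ± 45.4) and Gpt (94.7 ± 28.2) came next in TPM. Each of these 4 differed from its neighbour in the order by less than the larger of their SDs, with Got1 above G6pc in 7 livers, and G6pc above Pcx and Pcx above Gpt in 6 livers each. Slc37a4 (61.1 ± 13.3 TPM) was below Gpt in all 8 livers. Ppargc1a was at 2.54 ± 1.33 TPM, and the mean TPM of Pck1 was 471 times as high.

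At 2 of the steps where gluconeogenesis and glycolysis use different enzymes, the mRNA of the gluconeogenic enzyme was set against that of its glycolytic counterpart in the same liver, which removes the library's scaling. Pfkl encodes the liver phosphofructokinase, which opposes Fbp1. The ratio of Fbp1 to Pfkl, in CPM, was 38.6, 64.5, 56.2 and 41.5 in L-WT and 72.9, 74.3, 125 and 84.4 in L-ΔRbfox2. Every knockout liver lay above every wild-type liver, and the difference of the mean log2 ratios was 0.83 (L-WT 5.62 ± 0.35, L-ΔRbfox2 6.44 ± 0.36, SD, n = 4 each). It lay between 0.65 and 0.96 when each liver was left out in turn. The largest ratios were in L-ΔRbfox2 livers 3 and 4, and the difference without both was not computed. Of the single genes tested, 2.28% did not overlap between genotypes in CPM. That share was not counted for ratios of genes. The ratio was not corrected for GC content and gene length; that correction took the log2 fold changes of the separate genes from 0.35 to 0.11 for Fbp1 and from -0.46 to -0.18 for Pfkl. Over the alternatives Pfkl ran from -0.64 to -0.18, and it was -0.23 without L-ΔRbfox2 livers 3 and 4. No test was made of this ratio, and neither gene alone passed the threshold: Pfkl had a log2 fold change of -0.46 (edgeR adjusted P 0.511) beside 0.35 for Fbp1. Pfkl was at 15.9, 12.7, 13.6 and 18.1 CPM in L-WT and at 14.9, 11, 8.49 and 9.41 CPM in L-ΔRbfox2, with livers 2 to 4 of the knockout below every wild-type liver.

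Pklr, the liver pyruvate kinase, opposes Pcx and Pck1. It shares 711 exon bases with Hcn3 on the opposite strand. The ratio of Pck1 to Pklr was 111, 84.4, 101 and 138 in L-WT and 140, 70.2, 111 and 97.7 in L-ΔRbfox2. The genotypes overlapped, and the difference of the mean log2 ratios, -0.072, was smaller than the SD between livers of either genotype (0.30 and 0.42). When each liver was left out in turn it ran from -0.23 to 0.10, above 0 without L-WT liver 4 or L-ΔRbfox2 liver 2.

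**Figure D3:**
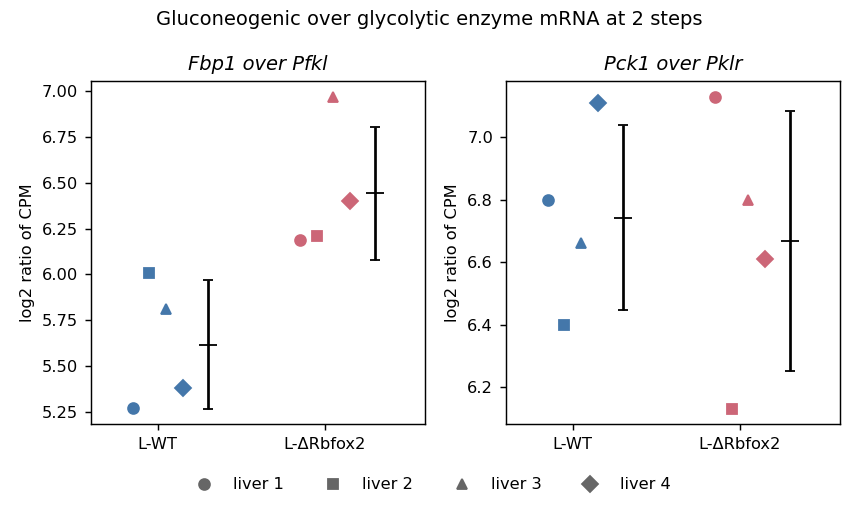
Log2 ratio of CPM (y axis, not starting at 0) of the gluconeogenic over the glycolytic gene at 2 steps, in each L-WT (blue) and L-ΔRbfox2 (red) liver, with the mean ± SD beside each group. The genotypes are apart for Fbp1 over Pfkl and overlap for Pck1 over Pklr.

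Whether Ppargc1a and the enzymes varied together between livers was examined over all 8 livers, as 7 relations of log2 CPM with exact two-sided permutation tests. With Pck1, Pearson's r was 0.629 (exact permutation P 0.0889, adjusted over the 7 relations 0.311) and Spearman's rho 0.833 (exact permutation P 0.0154, adjusted 0.108). As deviations from the genotype means r was 0.731, and without the 2 livers farthest from the median of Ppargc1a, L-WT livers 1 and 2, it was 0.73. In the plot of Ppargc1a against 4 enzymes, L-WT liver 4 lies above the other livers of like Ppargc1a level for Pck1.

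Got1 had an r of 0.65 with Ppargc1a (exact permutation P 0.0802, adjusted 0.311) and a rho of 0.548 (exact permutation P 0.171, adjusted 0.299), and an r of 0.852 without the same 2 livers. For G6pc r was 0.445 and rho 0.643 (exact permutation P 0.276 and 0.0962, adjusted 0.482 and 0.299), and for Pcx 0.494 and 0.595 (exact permutation P 0.214 and 0.132, adjusted 0.482 and 0.299). Fbp1, Slc37a4 and Gpt had r of -0.158, 0.269 and -0.048 and rho of -0.238, 0.19 and -0.119, with exact permutation P from 0.52 to 0.909. Without L-WT livers 1 and 2, r was 0.34 for Fbp1, 0.0638 for Slc37a4 and 0.406 for Gpt, and 0.592 for G6pc and 0.525 for Pcx. None of the 7 relations had an adjusted P under 0.05, and the smallest was 0.108.

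**Figure D4:**
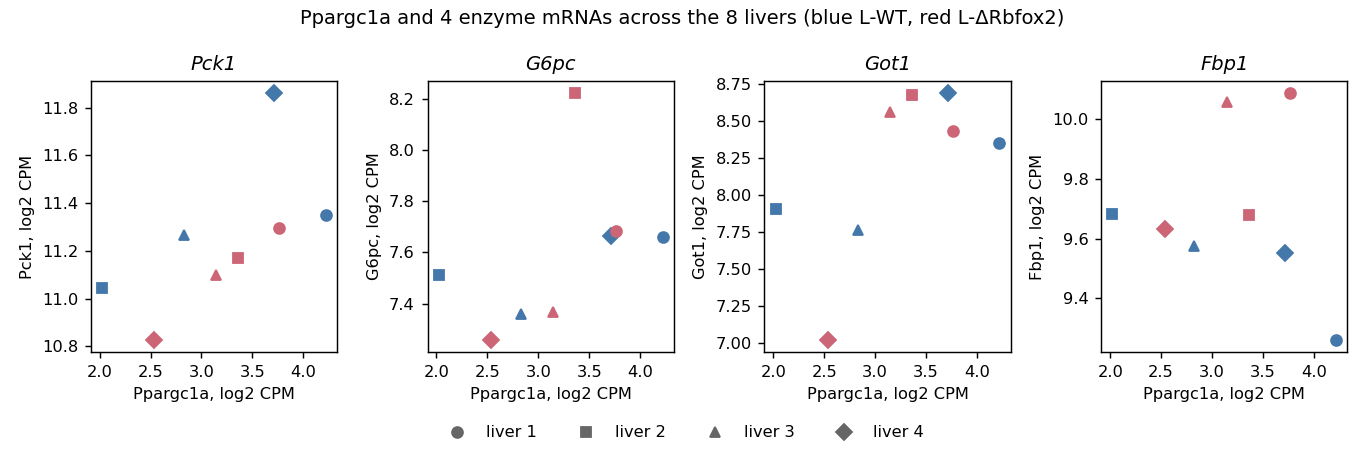
Log2 CPM of Ppargc1a (x axis) against log2 CPM of Pck1, G6pc, Got1 and Fbp1 (y axes), 1 point per liver, L-WT in blue and L-ΔRbfox2 in red, with a marker shape for each liver number. Pearson's r over the 8 livers was 0.629, 0.445, 0.65 and -0.158.

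Of the genes tested, the 5 whose log2 CPM followed Pck1 most closely over the 8 livers were Sds (r 0.978), Micall2 (0.975), Acy1 (0.968), Cry2 (0.967) and Pdxk (0.963). Sds, serine dehydratase, feeds serine carbon into pyruvate and is one of the precursor supply genes below. It was at 154, 117, 145 and 295 CPM in L-WT and at 171, 130, 143 and 93.5 CPM in L-ΔRbfox2, with L-WT liver 4 the highest and L-ΔRbfox2 liver 4 the lowest, as for Pck1. Sds shares 501 exon bases with genes on the opposite strand, Gm15690 and Plbd2. The 5 closest to G6pc were G3bp1 (r 0.951), Agap2 (0.929), Ptgfrn (0.921), Mindy1 (0.914) and Naf1 (0.912), and L-ΔRbfox2 liver 2 was the highest liver for each of the 5, as for G6pc. These are the largest of many correlations over 8 livers and carry no test.

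The other genes of the path were taken as lists. The enzymes shared with glycolysis, together with paralogues such as the mitochondrial Pck2, numbered 16, of which 15 were tested and Fbp2 was not. In edgeR 0 of 15 passed the adjusted threshold and 0 of 15 the unadjusted one, 9 were above 0 and 6 below, and the median log2 fold change was 0.0039 (from -0.20 to 0.098 over the alternatives). Pck2 was at 1.02 to 2.09 CPM over the 8 livers, with a log2 fold change of -0.17, and shares 53 exon bases with Gm10876 on the opposite strand.

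Of 18 genes that bring in precursors or export glucose, all were tested, 0 passed either threshold in edgeR, 8 were above 0 and 10 below, and the median was -0.032 (from -0.26 to 0.041 over the alternatives). Tat, tyrosine aminotransferase, had the highest mean TPM (832) and a log2 fold change of -0.28 (edgeR adjusted P 0.676), which ran from -0.47 without L-WT liver 2 to -0.13 without L-WT liver 4 when single livers were left out, and was -0.47 after correction for GC content and gene length and -0.056 without L-ΔRbfox2 livers 3 and 4. Mpc1 and Mpc2, picked out after their values were seen, form the mitochondrial pyruvate carrier. Mpc2 was at 103, 206, 127 and 84.7 CPM in L-WT and at 227, 108, 228 and 343 CPM in L-ΔRbfox2, and Mpc1 at 101, 250.3, 158 and 113 CPM and at 203, 151, 317 and 368 CPM. Both were highest in L-ΔRbfox2 livers 3 and 4. For Mpc2 the genotypes overlapped only through L-ΔRbfox2 liver 2, and for Mpc1 through L-ΔRbfox2 liver 2 and L-WT liver 2. Their log2 fold changes were 0.80 and 0.74, with adjusted P of 0.504 and 0.511 in edgeR. Over the alternatives Mpc2 ran from 0.33 to 1.12 and Mpc1 from 0.15 to 1.07, both lowest without L-ΔRbfox2 livers 3 and 4. Mpc1 shares 480 exon bases with a gene on the opposite strand, 4930506C21Rik.

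The opposing glycolytic list held 7 genes, all tested. In edgeR 0 of 7 passed either threshold, but all 7 log2 fold changes were below 0, from -0.91 to -0.16, with a median of -0.36, beside 7146 of 13856 genes below 0 and a median of -0.015 over all genes. Without L-WT liver 3, L-ΔRbfox2 liver 1, L-ΔRbfox2 liver 2, or L-ΔRbfox2 livers 3 and 4, 6 of the 7 were below 0. The list median ran from -0.62 with library totals alone to -0.24 after correction for GC content and gene length. In the first of these settings the median of all genes was -0.23. Gckr was the most abundant in TPM (log2 fold change -0.36, edgeR adjusted P 0.596, and from -0.58 to -0.14 over the alternatives, nearest to 0 without L-WT liver 1). L-WT livers 1 and 4 were the highest livers for Gckr, at 128 and 107 CPM, against 54.8 to 72.9 CPM in the other 6.

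Among 30 genes of hormone signalling and transcriptional control, 0 passed the adjusted threshold in edgeR and 2 (6.67%) had an unadjusted P under 0.05, both lower in L-ΔRbfox2, beside 9.79% of all genes in either direction and 1.83% lower. The median log2 fold change was -0.23, with 23 of 30 below 0, beside -0.015 and 7146 of 13856 over all genes. The list holds genes that act for gluconeogenesis and genes that act against it, the glucagon and insulin receptors among them. Its median and counts therefore give no direction for the path. Without L-ΔRbfox2 livers 3 and 4 the median was -0.027 with 18 below 0. After correction for GC content and gene length it was -0.10 with 22. With library totals alone the list median was -0.41 with 27 below 0, beside -0.23 for all genes in that setting. With single livers left out the list median ran from -0.36 to -0.16, with 20 to 26 below 0. Cebpb, a transcription factor that acts on the Pck1 promoter, was at 75.2, 74.6, 94.2 and 115 CPM in L-WT and at 48.7, 75.1, 55.7 and 50.6 CPM in L-ΔRbfox2 (log2 fold change -0.64, edgeR adjusted P 0.504). L-ΔRbfox2 liver 2 reached the lower wild-type values, and the other 3 knockout livers lay under them. Cebpb shares 312 exon bases with Tmem189 on the opposite strand.

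Klf9, a glucocorticoid-induced transcription factor, was at 94.9, 80, 105 and 98.9 CPM in L-WT and at 51.5, 76.1, 65.8 and 79.9 CPM in L-ΔRbfox2 (log2 fold change -0.47, edgeR adjusted P 0.504). The genotypes did not overlap, as in 2.28% of all genes tested, but L-WT liver 2 and L-ΔRbfox2 liver 4 differed only in the decimals. Hnf4a had the highest mean TPM of this list, 152, and a log2 fold change of -0.23 (edgeR adjusted P 0.635), which ran from -0.38 without L-ΔRbfox2 liver 2 to -0.11 without L-WT liver 3 when single livers were left out, and was -0.098 without L-ΔRbfox2 livers 3 and 4.

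The 13 other fasting-induced genes of the liver were all tested. In edgeR 0 of 13 passed either threshold, 3 were above 0 and 10 below, with a median of -0.068 (from -0.28 to -0.013 over the alternatives). Cyp4a14, a fatty acid hydroxylase induced through PPARα, had the highest mean TPM (2692) and a log2 fold change of -0.068 (edgeR adjusted P 0.911). It was at 3268 to 5836 CPM in L-WT and at 3467 to 5503 CPM in L-ΔRbfox2.

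**Figure D5:**
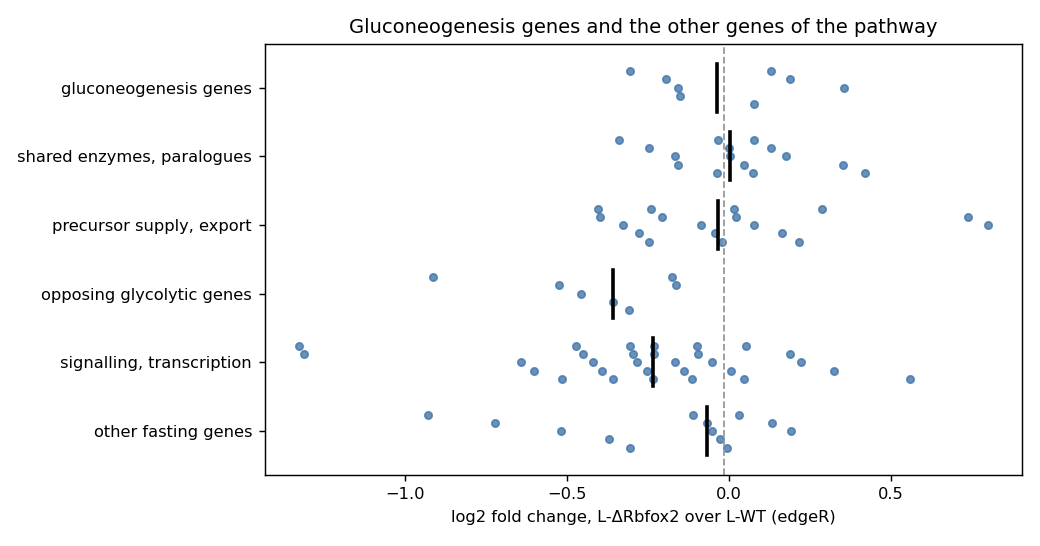
Log2 fold change of L-ΔRbfox2 over L-WT from edgeR (x axis) for each tested gene of 6 lists, 1 point per gene, spread vertically for legibility. Black bars are the list medians, from -0.36 for the opposing glycolytic genes to 0.0039 for the shared enzymes, and the dashed line is the median over all genes tested, -0.015.

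Gluconeogenesis is strongest in periportal hepatocytes, and zonation was therefore described beside it. Of 13 periportal genes 0 had an unadjusted P under 0.05 in edgeR, with a median log2 fold change of 0.14 and Ass1 the most abundant. Of 12 pericentral genes 1 did (8.33%), beside 9.79% of all genes in either direction and 1.83% lower. It was Slc1a2, which was lower in L-ΔRbfox2 (log2 fold change -1.16, adjusted P 0.504 by edgeR and 1.25e-04 by DESeq2), with every knockout liver below every wild-type liver. The genotypes did not overlap in 2.28% of all genes tested. The log2 fold changes of the 12 pericentral genes ran from -1.16 to 1.16, with 6 above 0 and 6 below. The median of the list was -0.033, and Cyp2e1 was its most abundant gene. The summed CPM of the periportal genes was 7315 to 9720 in L-WT and 8097 to 10170 in L-ΔRbfox2, and that of the pericentral genes 6699 to 9366 and 5669 to 11030.

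Markers of hepatocytes were abundant in all 8 livers, led by Alb, with a summed level of 48680 to 67720 CPM in L-WT and 52780 to 72760 CPM in L-ΔRbfox2 and 0 of 8 genes at an unadjusted P under 0.05 in edgeR (list median 0.095). Of 7 Kupffer cell markers 1 was (14.3%), beside 9.79% of all genes in either direction and 1.83% lower. It was Clec4f, which had the highest CPM of the list (per length, C1qa had the highest mean TPM, 17.5 against 15.1). Clec4f was lower in L-ΔRbfox2 (log2 fold change -0.73, edgeR adjusted P 0.504, list median -0.26). The summed CPM of the list was 65 to 116 in L-WT and 37.1 to 78.3 in L-ΔRbfox2. Summed markers of sinusoidal endothelium (Clec4g most abundant, 0 of 6, median -0.12) were at 63.6 to 81.1 CPM and 54.5 to 72.8 CPM, and those of stellate cells (Dcn most abundant, 0 of 6, median -0.0039) at 65.5 to 134 CPM and 86.4 to 132 CPM. Cholangiocyte markers (Spp1 most abundant, 0 of the 5 tested) summed to 15 to 26.7 CPM in L-WT and 16.8 to 62.5 CPM in L-ΔRbfox2, highest in L-ΔRbfox2 liver 3. All 5 had log2 fold changes above 0, with a median of 0.70, the largest of the cell type lists with more than 1 gene tested.

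Lymphocyte markers summed to at most 1.39 CPM in any liver, with Nkg7 the most abundant, and none of the 5 was tested. Of the 4 adipocyte markers Lep was at 0 in all 8 livers and Adipoq and Plin1 were under 0.1 CPM, while Cidec, which hepatocytes can also make, was at 2.77 to 54.8 CPM (the 1 gene tested, unadjusted P not under 0.05). Kidney and intestine, which also make glucose, were covered by 6 markers. Of these, 5 were under 0.1 CPM in every liver, with Kap, Umod and Fabp6 at 0 in all 8. Fabp2, the only 1 of the 6 tested, was the most abundant, at 50.1 to 152 CPM in L-WT and 94.1 to 232 CPM in L-ΔRbfox2. It was higher in L-ΔRbfox2 (log2 fold change 0.88, unadjusted P 0.0483 and adjusted P 0.504 in edgeR), and the source of its reads was not tested. Pancreas and muscle markers were all under 0.1 CPM, with Pnlip the most abundant and Prss2 and Cpa1 at 0. Of the zonation and cell markers named here, Slc1a2, Clec4g and Umod share 189, 146 and 539 exon bases with genes on the opposite strand, and Spp1 shares 309 with Gm42793 on its own strand. The part of these cell types in the values of the 8 gluconeogenesis genes was not tested.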

How the data were processed

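Poly(A) RNA-seq read counts per Ensembl gene were used as deposited by the authors, 1 column per liver, with no normalization. According to the study's methods and the submitters' processing notes, reads were aligned to GRCm38 with TopHat2 (2.0.11) and counted with featureCounts. The methods give paired reads, aligned with the stranded library type fr-firststrand. The strand, multi-mapping and pair settings of the counting are not given in the sources used here, so whether the counting kept apart reads of genes that overlap on opposite strands is not known. The number of columns left unmatched was 0. Totals were 37482458 to 56177588 counts per liver, which puts 3 counts at 0.0468 to 0.0929 CPM. No pair of livers of a genotype agreed within sampling noise (smallest chi-square per degree of freedom 97.8).

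Symbols, exon lengths and positions came from GENCODE M21 (GRCm38), matching 45229 of 46078 identifiers. Genes kept by filterByExpr (minimum count 10, minimum total 15) were tested with edgeR (4.0.16, R 4.3.3), using TMM factors and the quasi-likelihood test with genotype as the only term and Benjamini-Hochberg adjustment over the 13856 genes. Standard errors and 95% intervals came from limma-voom (limma 3.58.1). DESeq2 (1.42.0) was an alternative. Log2 CPM used a prior count of 2. The code was tested on simulated counts. Plots were drawn with matplotlib (3.10.9).

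Named genes were the 8 gluconeogenesis genes, Rbfox2, pathway genes with an unadjusted P under 0.05, the gene of highest mean TPM in each pathway list, the substrate cycle pairs, the most abundant and the absent zonation and cell markers, and the 5 genes most alike Pck1 and G6pc; 2 of these genes, and the ratio that needs 1 of them, are not reported here. Mpc1, Mpc2, Sds and Pck2 were followed in the alternatives after their values were seen. Slc1a2 is neither the most abundant marker of its list nor absent, and was named for its unadjusted P under 0.05 in edgeR. The 8 genes and the lists were chosen with earlier results of these data known. Alternatives were other scalings, tests, filters, robust estimation, a replicate block, a correction for GC content and gene length, and each liver left out. Library totals without scaling factors, and leaving out L-ΔRbfox2 livers 3 and 4 together, were added after seeing the data.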

Additional observations from a re-analysis of the deposited data

Results flagged for a closer look

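Within each genotype, the gap between the most extreme liver and its nearest neighbour was compared with the whole range of the 4 livers. This was done for the 8 gluconeogenesis genes, Rbfox2, the tested pathway genes named above and the 2 ratios. The genes most alike Pck1 and G6pc, apart from Sds, and the zonation and cell markers were not examined in this way. Of these, Acy1 was at 12.36, 11.95, 12.21 and 20.72 CPM in L-WT livers 1 to 4. In 1 of 46 groups that gap exceeded the 95% critical value of Dixon's test for 4 values. Pklr, the liver pyruvate kinase, was at 32.8 CPM in L-ΔRbfox2 liver 2, against 17.9 to 19.7 CPM in the other 3 knockout livers, a gap of 0.88 of the range. The same liver was the highest of all for G6pc. Chance alone marks about 1 in 20 groups in this way, or 2.3 of 46.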

How the results depend on the processing

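The 8 gluconeogenesis genes had unadjusted P above 0.05 in each of 20 alternatives. Their adjusted P, 0.212 to 1, says little, since in edgeR no gene passed that threshold, Rbfox2 included. Of 160 alternative log2 fold changes of these genes, 140 kept their sign and 20 did not; the cause was not tested. By limma-voom, Ppargc1a was at 0.048 and Got1 at -0.0099. With the GC content and gene length correction, G6pc was at -0.029 and Got1 at -0.033. With library totals alone, G6pc was at -0.022, Slc37a4 at -0.056 and Got1 at -0.092, but that scaling also moved the median of all genes to -0.23; relative to it they were at 0.20, 0.17 and 0.14, and the median of the 8 genes at 0.036. Without L-ΔRbfox2 livers 3 and 4, Pcx was at 0.028, Ppargc1a at 0.15, Cyp4a14 at 0.049, Pklr at 0.0028 and Pck2 at 0.14.

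Leaving out single livers gave ranges of -0.42 to 0.23 for Ppargc1a, -0.073 to 0.34 for Got1, -0.11 to 0.25 for G6pc, -0.032 to 0.31 for Slc37a4 and -0.24 to 0.12 for Cyp4a14. The r of Ppargc1a ranged from -0.453 to 0.334 with Fbp1 and from -0.325 to 0.205 with Gpt. With Slc37a4 it ranged from 0.0496 to 0.494, and with G6pc from 0.336 to 0.69. Single livers also moved the count of all genes at an unadjusted P under 0.05 between 404 and 3475.

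That count was 596 with library totals alone and 171 without L-ΔRbfox2 livers 3 and 4. The share of it higher in L-ΔRbfox2 was 81.3% with TMM, 71% with upper-quartile factors and 34.1% with library totals. DESeq2 called 10 genes of all, among them Rbfox2 (-1.82, adjusted P 2.3e-04; range over its alternatives 2.3e-04 to 1).

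The replicate numbers do not pair the livers: across genes, the deviations of livers 1, 2, 3 and 4 from their genotype means correlated between genotypes with r of 0.13, -0.61, 0.12 and -0.51, and no L-WT liver correlated best with the L-ΔRbfox2 liver of its own number. With a replicate block, 0 genes passed the adjusted threshold, 335 had an unadjusted P under 0.05 and Ppargc1a was at 0.0012. With the block and the GC content and gene length correction together, that count was 384, G6pc was at -0.12 and Got1 at -0.076.

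Each of the 8 genes held 186 or more reads in every liver.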
